A study of Homo sapiens with 4 samples.

Results

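The regions described here are stretches of open chromatin that the deposited annotation places in an exon of the 5′ untranslated region (5′ UTR) of a gene. They were chosen by that annotation alone and number 925 of 58127 regions, carrying 917 gene symbols. The regions come from ATAC-seq, in which a transposase cuts open DNA and the fragments are sequenced, in MCF10A, a non-tumorigenic human mammary epithelial cell line. One group of 2 libraries (A and B) carried a short hairpin against SNHG8d (shG8d), named after a host gene of small nucleolar RNAs, and the other group of 2 (A and B) carried a control hairpin (shNC). Both groups are the same cell line with no other treatment in the labels, and the labels do not tell whether A and B were separate cultures or clones. A p-value here thus reflects library-to-library spread alone, possibly only technical.

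The 5′ UTR is the part of a messenger RNA upstream of the start codon, and its first exon begins at the transcription start site (TSS). Open chromatin there lies within or just downstream of the nucleosome-depleted stretch of an active promoter. Many genes have alternative first exons, each with its own start, and a 5′ UTR region can mark one such start or the beginning of the transcribed sequence.

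The table holds a common set, an shG8d-specific set and an shNC-specific set of regions, and its group labels do not name the same libraries in all 3. Every normalized count was a whole multiple of what 1 read is worth, and these steps identify 4 physical libraries, a deeper pair with 8124488 (A) and 8111839 (B) reads in regions and a shallower pair with 4457248 (A) and 4344212 (B). In the common set the deeper pair is labelled shG8d and the shallower pair shNC, while in both specific sets the shallower pair is labelled shG8d and the deeper pair shNC. The sets are therefore kept apart, each difference is given as labelled shG8d minus labelled shNC within its set, and nothing is read as the direction of the knockdown's effect. The groups also differ in depth, and hairpin and depth cannot be told apart. Of 7 epithelial markers 6 had a region within 1000 bp of a TSS, with mean levels of 51.8 to 145 normalized counts. On a list of 24 markers of fibroblasts, endothelium, blood and neurons 5 had one. These were the neuronal genes TUBB3 (163 normalized counts at its highest region), MAP2 (106) and SYT1 (67.9), the monocyte marker CD14 (131) and PDGFRA (37.3), and the fibroblast markers COL1A1, COL1A2, LUM and DCN had none.

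The common set held 682 of the 5′ UTR regions, the shG8d-specific set 27 and the shNC-specific set 216. Sequence just upstream of the start of several genes with large differences is shown first, because the base composition of the start is described further on. They are examples and not evidence of a trend. Each line is 30 bases, read 5′ to 3′ on the gene's strand, from the RefSeq start window of the gene (GRCh38.p14, while the files use hg19, so these positions are not those of the regions). Capitals mark a GC box (GGGCGG, or CCGCCC where it lies on the opposite strand), a TATA box (TATAAA) or a CCAAT box.

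These 3 genes had a 5′ UTR region that was lower in the shG8d-labelled libraries of the common set or, for BTN3A3, higher in those of the shG8d-specific set, which is the same shallower pair being high.
ANXA1, chr9:73151822-73151851, + strand: cctttaaaatccTATAAAatcagaagccca
TBC1D19, chr4:26583951-26583980, + strand: aaagcgtcctccCCGCCCcggtctttttcc
BTN3A3, chr6:26440458-26440487, + strand: atcacctctgagCCAATcaaaaaactaatt
These 5 genes had a region that was higher in the deeper pair, labelled shG8d for TRIM9, RCN2 and ATG10 and shNC for LATS2 and MINK1.
TRIM9, chr14:51095136-51095165, - strand: gagggcaggtagGGGCGGtccgggctggcg
RCN2, chr15:76931712-76931741, + strand: ctcccgttccctCCGCCCtcaacgtacgtc
ATG10, chr5:81971939-81971968, + strand: tgggtctcagccCCGCCCtgcccagagcgc
LATS2, chr13:21061619-21061648, - strand: gccgcaggcgccCCGCCCggactggtatgc
MINK1, chr17:4833180-4833209, + strand: ccgcctcggccgCCGCCCacttctttcacg
These 2 genes had a GC-rich start and a region that was higher in the shallower pair, labelled shG8d for both.
ADAM12, chr10:126388589-126388618, - strand: agccgcggctcgGGGCGGgaccctggcggg
C6orf132, chr6:42142652-42142681, - strand: tgggcggcggcgGGGCGGggcccggccaag
The ANXA1 motif begins 31 bases before the start and that of TRIM9 48 bases before it. G and C made up 37.7% of the ANXA1 window and 34.7% of the BTN3A3 window, against 57.7% for TBC1D19, 70.3% for TRIM9, 76.3% for RCN2, 76.7% for ATG10, 67.7% for LATS2 and 71.0% for MINK1. It was 71.0% for ADAM12 and 72.3% for C6orf132, and 64.0% for STC2, also higher in the shallower pair, while ZNF337, higher in the deeper pair, had 50.3%.

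The regions sat close behind the start site, a position set in part by the annotation that chose them. In 872 of 925 (94.3%) the exon was exon 1, in 44 it was exon 2 and in 9 a later exon. The nearest TSS lay upstream of 918 regions and downstream of 7. The closest region was 101 bp from its TSS, and the quartiles of the distance were 132, 173 and 252 bp. Regions nearer a start carry another annotation, such as one of BTN3A2 at 100 bp that is annotated as promoter. The lower edge of the distances thus follows from how the regions were chosen. Between 101 and 500 bp downstream lay 848 regions, 892 were within 1000 bp on either side, and 8 were more than 10000 bp away. Protein-coding genes accounted for 923 regions and noncoding RNAs for 2.

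**Figure D1:**
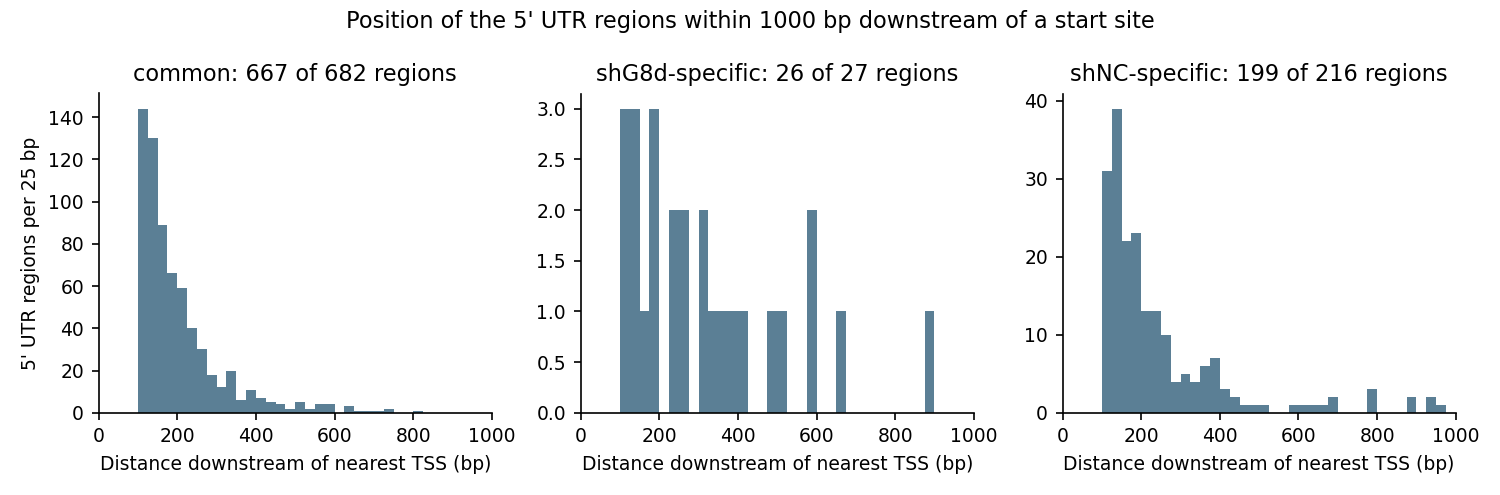
Number of 5′ UTR regions per 25 bp of distance downstream of the nearest TSS (x axis, bp), for the regions within 1000 bp in each set. In all 3 sets the regions begin just beyond 100 bp, an edge that comes with the annotation used to choose them. They thin out past about 500 bp in the common and shNC-specific sets.

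The sets differed in where their 5′ UTR regions lay. The median distance was 274 bp in the shG8d-specific set, 188.5 bp in the shNC-specific set and 166 bp in the common set. Exon 1 held 88.9% of the shG8d-specific, 88.0% of the shNC-specific and 96.5% of the common regions. The median of the mean level was 42.6 normalized counts in the shG8d-specific set, 44.7 in the shNC-specific set and 97.0 in the common set, with no scaling for region width. These are descriptions of the sets, and no test was run between them.

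The transcript whose exon a region lay in and the gene of the nearest TSS were the same for 895 of 913 regions with both names known, and differed for 18. A symbol therefore names the nearest TSS only. One lay in the 5′ UTR of PELO, a ribosome rescue factor encoded inside an intron of the integrin gene ITGA1. Others lay in COX15 beside CUTC, in YARS1 beside S100PBP and in ANG beside RNASE4. The pairs EIF3C and EIF3CL, and FAM72C and FAM72D, are near-identical copies, and their counts are uncertain because reads could be split between them.

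In the common set, 94 of 682 5′ UTR regions (13.8%) were higher and 94 (13.8%) were lower in the shG8d-labelled libraries (limma on log2(normalized count + 1), Benjamini-Hochberg adjusted p under 0.05 over all 58127 regions). Over all common regions the percent called was 10.7% higher and 15.0% lower. The higher 5′ UTR regions included starts of a fucosyltransferase, a ubiquitin ligase and an interferon-induced exonuclease. Among the lower ones were starts of a butyrophilin, annexin A1, a phosphodiesterase and a heterochromatin protein. The median log2 difference of the 5′ UTR regions was -0.04, beside 0.06 for promoter regions and -0.12 for all common regions. At least 2-fold differences made up 29 of the 94 higher and 27 of the 94 lower regions. Both shG8d-labelled values lay above both shNC-labelled ones in 209 of the 682 regions and below them in 243. Over all common regions these shares were 27.1% and 40.0%. All 94 higher and all 94 lower regions were without overlap, so a lack of overlap in a named region adds nothing to its call. Called differences ran from 0.49 to 2.62 among the higher and from -1.44 to -0.50 among the lower. The authors' deposited table, at an unadjusted p under 0.05, had 92 higher and 94 lower.

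These counts depended on single libraries and on the scaling. The higher regions numbered 37 without the library labelled shG8d A, 39 without shG8d B, 142 without shNC A and 85 without shNC B. The lower regions numbered 22 without shG8d A, 44 without shG8d B, 106 without shNC A and 103 without shNC B. With library totals made equal, 38 were higher and 227 lower, since that scaling moves the median of all regions by -0.35.

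**Figure D2:**
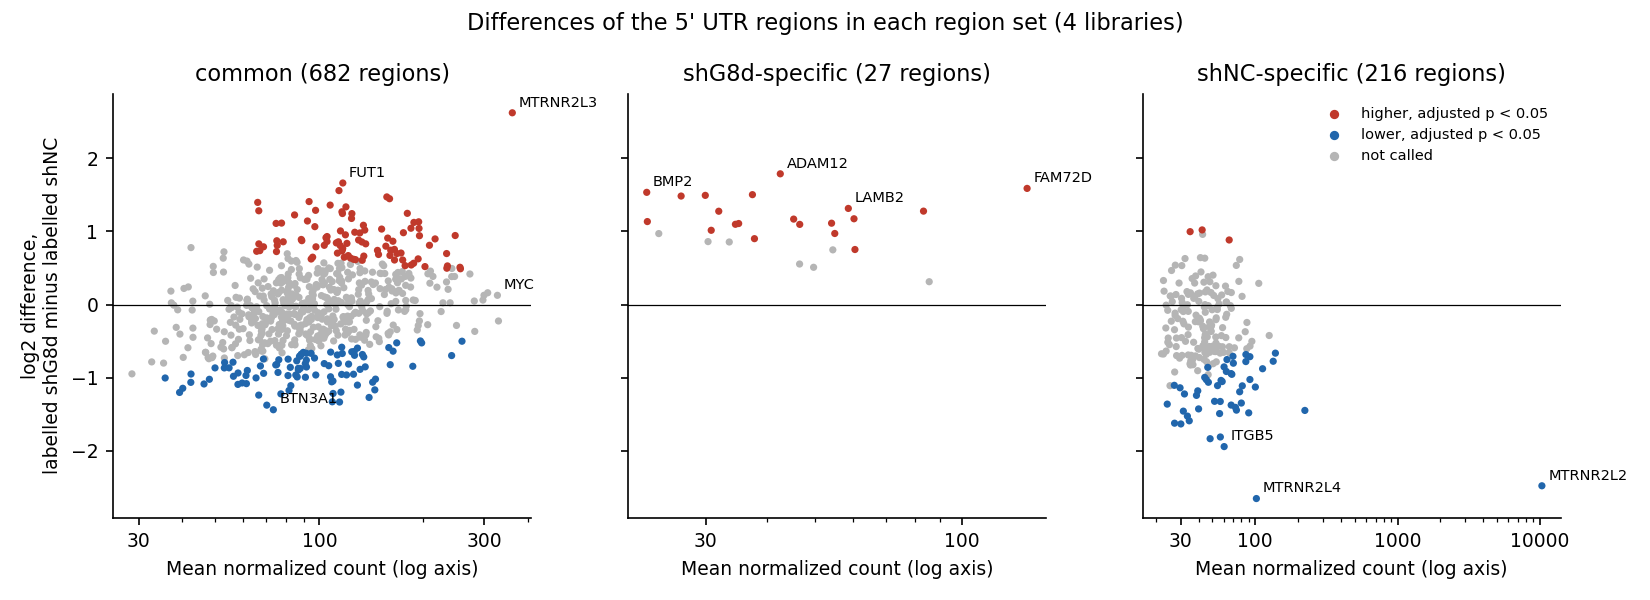
log2 difference (labelled shG8d minus labelled shNC) of each 5′ UTR region against its mean normalized count (log axis), by set, coloured by the limma call. The common regions spread to both sides of 0, all 27 shG8d-specific regions lie above it, and called shNC-specific regions lie mostly below it.

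FUT1, a fucosyltransferase that makes the H antigen, had 189 and 166 normalized counts in the shG8d-labelled libraries, against 64.0 and 48.0 in the shNC-labelled libraries. Both shG8d-labelled values were far above both shNC-labelled values, and the log2 difference was 1.66 ± 0.22 (SE, limma adjusted p = 6.64e-05). The region lies in exon 3, 820 bp from the TSS. TRIM9, an E3 ubiquitin ligase best known from neurons, had 179 and 161 against 50.7 and 64.4 normalized counts (shG8d-labelled against shNC-labelled). Its difference was 1.56 ± 0.22 (limma adjusted p = 0.000114). ATG10, the E2-like enzyme that helps attach ATG12 to ATG5 in autophagy, had 151 and 144 in the shG8d-labelled libraries and 105 and 30.5 in the shNC-labelled ones. One shNC-labelled library set most of that difference: its log2 value of 1.36 ± 0.35 (limma adjusted p = 0.0102) became 0.48 without shNC B (limma adjusted p = 0.0705).

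RCN2, a calcium-binding protein of the endoplasmic reticulum, had 221 and 237 normalized counts in the shG8d-labelled libraries and 103 and 65.6 in the shNC-labelled libraries, a log2 difference of 1.47 ± 0.22 (limma adjusted p = 0.000174). ADGRG1, an adhesion G protein-coupled receptor, had 151 and 121 in the shG8d-labelled libraries and 48.3 and 52.7 in the shNC-labelled ones, a difference of 1.41 ± 0.23 (limma adjusted p = 0.000428). In both genes the lower shG8d-labelled value was above the higher shNC-labelled value, as in every higher region called in this set. C5orf24 had 223 and 244 against 97.9 and 73.8 normalized counts (shG8d-labelled against shNC-labelled), a log2 difference of 1.44 (limma adjusted p = 9.94e-05). The zinc finger gene ZNF337 had 87.5 and 102 in the shG8d-labelled libraries and 50.7 and 24.6 in the shNC-labelled ones, a log2 difference of 1.39 (limma adjusted p = 0.0037). Its 2 shNC-labelled values lay further apart than its 2 shG8d-labelled ones.

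BTN3A1, a butyrophilin needed for the phosphoantigen response of γδ T cells, gave the lowest log2 difference of the common set. It had 38.7 and 39.5 normalized counts in the shG8d-labelled libraries and 97.9 and 118 in the shNC-labelled libraries, a difference of -1.44 ± 0.25 (limma adjusted p = 0.000717). CELF1, an RNA-binding regulator of splicing and mRNA decay, had 39.6 and 37.9 in the shG8d-labelled libraries and 95.4 and 109 in the shNC-labelled ones, a difference of -1.37 (limma adjusted p = 0.00106). For both genes each group was tight and the gap between groups wide. ANXA1, an anti-inflammatory phospholipid-binding protein, had 89.2 and 73.4 in the shG8d-labelled libraries and 180.0 and 214 in the shNC-labelled ones, a difference of -1.27 (limma adjusted p = 0.000359). PDE4D, a cAMP phosphodiesterase, had 44.6 and 33.9 against 78.5 and 110 (shG8d-labelled against shNC-labelled), a difference of -1.24 (limma adjusted p = 0.00374). The shNC-labelled values of PDE4D were spread.

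ZNF462, a zinc finger protein, had 63.1 and 66.2 normalized counts in the shG8d-labelled libraries and 164 in each shNC-labelled library, a log2 difference of -1.33 ± 0.21 (limma adjusted p = 0.000291). CBX1, the heterochromatin protein HP1β, had 39.6 and 51.6 in the shG8d-labelled libraries and 133 and 85.5 in the shNC-labelled ones, a difference of -1.22 (limma adjusted p = 0.00352). TBC1D19, of a family of Rab GTPase-activating proteins, had 57.2 and 66.2 against 147 and 165 (shG8d-labelled against shNC-labelled). As in all called common regions, the groups did not overlap in these 3. TBC1D19 differed by -1.33 (limma adjusted p = 0.000383), and PALMD, palmdelphin, by -1.21 (limma adjusted p = 0.00118).

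**Figure D3:**
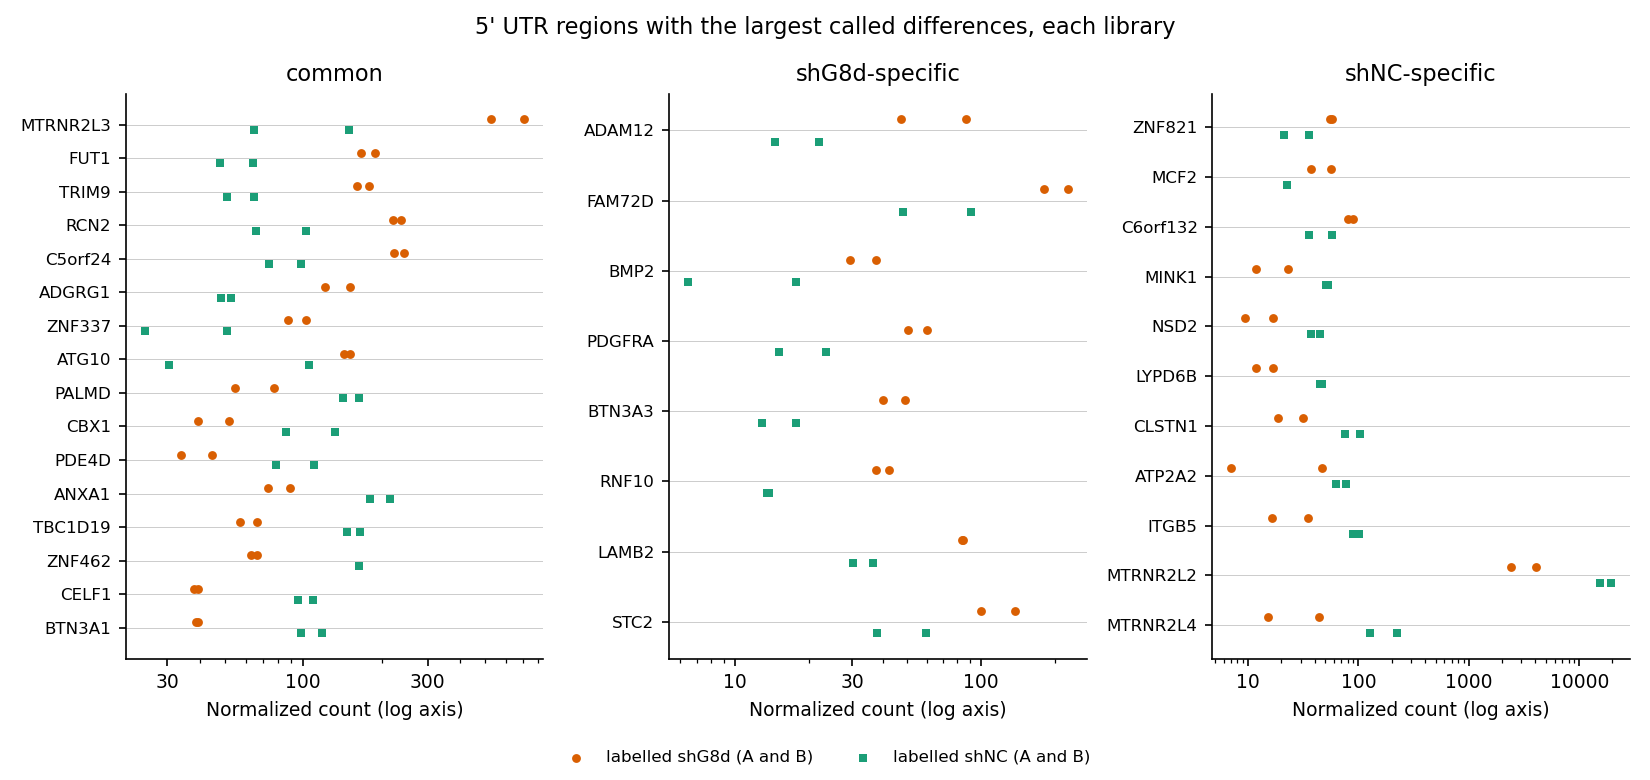
Normalized count (log axis) of the 5′ UTR regions with the largest called differences in each set and direction. Orange circles are the 2 shG8d-labelled libraries and green squares the 2 shNC-labelled ones. Only regions without overlap between the groups were eligible to be shown.

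Gene lists gave few members each, and 21 of 23 lists had any. Their counts stand beside 10.7% higher and 15.0% lower over all common regions, at a median log2 of -0.12, and with so few members nothing is read from a list as a whole. Zinc finger ZNF genes were the largest, with 41 common regions, of which 4 were higher and 7 lower, at a median log2 of -0.17. The higher ones were ZNF337, ZNF354B (1.04), ZNF862 (0.93) and ZNF101 (0.83). The lower ones ranged from -1.33 in ZNF462 to -0.59 in ZNF430, and include ZFP36L1, an RNA-binding protein that enters the list through an older name. Solute carriers had 11 common regions, 4 higher and 1 lower, at a median of 0.02. These were the ornithine carrier SLC25A15 (0.72), the zinc transporter SLC30A5 (0.62), SLC35B4 (0.61) and MFSD14B (0.61) above, and SLC2A12 (-0.87) below.

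Of 7 chromatin regulators in the common set none was higher and 2 were lower in the shG8d-labelled libraries, namely CBX1 and the Polycomb subunit EED (-0.67). Of 6 immediate early genes 1 was lower, ZFP36L1 (-0.72), while MYC differed by 0.13 and DUSP6, a phosphatase of ERK, by 0.06. Of 5 genes of NF-κB, cytokine and interferon signalling 1 was higher and 1 lower. ISG20, an interferon-induced exonuclease, had 260.0 and 272 normalized counts in the shG8d-labelled libraries and 133 and 110 in the shNC-labelled ones, a log2 difference of 1.13 (limma adjusted p = 0.000383). BIRC3, an inhibitor of apoptosis, differed by -0.50 (limma adjusted p = 0.0387). Of 4 junction genes DSG2, a desmosomal cadherin, was higher by 0.67. Of 3 nuclear receptors RXRA differed by 0.70 and the oxysterol receptor NR1H2 by -0.97. None of 6 cell cycle and p53 genes, 4 growth factor ligands or 6 translation regions passed the test. CD14, a monocyte marker on the list of other cell types, differed by -0.89. It was the only common region of that list.

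The smaller of these differences lost their calls when single libraries were left out. In the fit without shG8d A the log2 difference itself grew in size for DSG2 (0.74), RXRA (0.78), SLC25A15 (0.77) and BIRC3 (-0.53). It shrank for NR1H2 (-0.85), CD14 (-0.82) and ZFP36L1 (-0.62). A lost call alone therefore does not mean that the omitted library made the difference. Without shG8d A the limma adjusted p was 0.136 for NR1H2, 0.0662 for CD14, 0.175 for ZFP36L1, 0.218 for BIRC3, 0.129 for DSG2, 0.0848 for RXRA and 0.167 for SLC25A15. Without shG8d B it was 0.0609 for ZFP36L1, 0.263 for BIRC3, 0.223 for DSG2, 0.169 for RXRA and 0.215 for SLC25A15. Without shNC A it was 0.167 for NR1H2, and without shNC B 0.0883 for BIRC3, 0.129 for DSG2 and 0.0561 for RXRA. The direction held in each of these. With equal library totals DSG2 (0.32), RXRA (0.34), SLC25A15 (0.37) and the solute carriers and zinc finger genes SLC30A5 (0.27), SLC35B4 (0.26), MFSD14B (0.26), ZNF862 (0.58) and ZNF101 (0.48) were no longer called. Without shG8d B the limma adjusted p was 0.137 for EED, 0.158 for SLC2A12, 0.163 for SLC30A5, 0.239 for SLC35B4, 0.154 for MFSD14B, 0.198 for ZNF862, 0.103 for ZNF101 and 0.152 for ZNF430. Without shG8d A it ran from 0.146 in SLC2A12 to 0.265 in SLC30A5 for the same genes except ZNF862, which stayed called. Without shNC B it was 0.0781 for EED, 0.246 for SLC2A12, 0.275 for SLC30A5 and 0.0934 for ZNF101.

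The 5′ UTR regions of highest level in the common set, after MTRNR2L3, showed no called difference. KLF9, a Krüppel-like transcription factor, had 280.2 and 328 normalized counts in the shG8d-labelled libraries and 342 and 368 in the shNC-labelled ones (log2 difference -0.22 ± 0.16, limma adjusted p = 0.34). MYC had 331 and 353 against 317 and 309 (shG8d-labelled against shNC-labelled, 0.13 ± 0.16, limma adjusted p = 0.605). The kinesin gene KIF21A had 316 and 332 against 271 and 309 in the same order (0.16 ± 0.16, limma adjusted p = 0.508). The values of MYC and KIF21A were slightly higher in the shG8d-labelled libraries, but the sign of both turned when library totals were made equal.

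Position within the gene split the common regions to a small degree. Over all common regions 10.7% were higher and 15.0% lower. Up to 150 bp, 45 of 281 regions (16.0%) were higher and 40 (14.2%) lower, with a median log2 of 0.02. Over 150 and up to 250 bp, 33 of 248 (13.3%) were higher and 31 (12.5%) lower (median -0.09). Over 250 and up to 500 bp 6 of 114 (5.26%) were higher and 19 (16.7%) lower (median -0.19). The 24 regions over 500 and up to 1000 bp went the other way, with 8 (33.3%) higher and 2 (8.33%) lower (median 0.14). The medians thus follow no single order. Of 658 exon 1 regions 91 (13.8%) were higher and 89 (13.5%) lower. Of 24 regions in later exons 3 (12.5%) were higher and 5 (20.8%) lower.

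Of the 15 common regions far from a start (more than 1000 bp from the nearest TSS), 2 were higher and 2 lower. That is 13.3% each, close to the 13.8% each of all common 5′ UTR regions and beside 10.7% and 15.0% over all common regions. EGLN1, an oxygen-sensing prolyl hydroxylase that marks HIF proteins for degradation, had a region 2683 bp downstream with 113 and 125 normalized counts in the shG8d-labelled libraries and 56.8 and 44.5 in the shNC-labelled ones. Its log2 difference was 1.22 (limma adjusted p = 0.00158). The 5′ UTR region of HIF1A, the oxygen-regulated factor itself, was named after its value was seen: it had 153 and 161 against 89.4 and 72.6 (shG8d-labelled against shNC-labelled), a difference of 0.95 (limma adjusted p = 0.0034). Both were higher in the shG8d-labelled libraries. A region in PCID2, 20702 bp upstream of the start of CUL4A, differed by 0.87, and SDHAF3, an assembly factor of succinate dehydrogenase, by -1.09 at 1129 bp. The limma adjusted p of the PCID2 region was 0.142 without shG8d A, 0.0806 without shG8d B and 0.105 with equal library totals, and that of SDHAF3 was 0.0756 without shG8d B. The farthest region, 31084 bp downstream in TRIM16, differed by 0.29 and was not called.

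Where a gene also had a promoter region in the common set, its 2 kinds of region could be set side by side in the same libraries. There were 57 such pairs from 50 genes. In 24 pairs, from 21 genes, the 5′ UTR region was called and in 17 the promoter region. A region counts once in each pair it belongs to, so the pairs are not independent. Over the whole common set 13.8% of 5′ UTR regions were called higher and 13.8% lower. For promoter regions these shares were 19.9% and 11.7%. The counts of pairs are a description. Both were called in 8 pairs, in opposite directions in 6 and in the same direction in 2. Distances are to the nearest of a gene's start sites, so a pair may mark 2 different starts, and the difference between the regions of a pair was not itself tested.

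PSPH, the last enzyme of serine synthesis, showed the widest contrast. Its promoter region had 236 and 249 normalized counts in the shG8d-labelled libraries and 116 and 105 in the shNC-labelled ones, a log2 difference of 1.13 (limma adjusted p = 0.000396). Its 5′ UTR region, in exon 2 and 17506 bp from the nearest TSS, had 43.8 and 83.9 in the shG8d-labelled libraries and 103 and 122 in the shNC-labelled ones, a difference of -0.87 (limma adjusted p = 0.0257). The promoter region was high and the exon 2 region low in the same libraries. CREM, a cAMP-responsive factor with an internal promoter for its inducible repressor form, had a 5′ UTR region with 77.4 and 79.9 against 149 and 158 normalized counts (shG8d-labelled against shNC-labelled) and a promoter region with 173 and 170.3 against 109 and 114. Those gave log2 differences of -0.95 and 0.62, with limma adjusted p of 0.00298 and 0.0235. The 5′ UTR region of CREM lay 103 bp and its promoter region 236 bp downstream of the nearest TSS of each.

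The other opposite pairs were RAB30, a Golgi Rab GTPase (5′ UTR -0.86, promoter 0.63), AHCYL1, a partner of the inositol trisphosphate receptor (-0.52 and 1.08), the semaphorin gene SEMA4B (-0.79 and 0.86) and OSBPL1A, an oxysterol-binding protein (0.70 and -0.51). SEMA4B had a second promoter region at -0.94, the same direction as its 5′ UTR region, and FAM13A had -0.94 in the 5′ UTR and -0.56 in the promoter. The estimates of the 6 opposite pairs kept opposite signs in every alternative fit. Both members were called in 0 of the 6 without shG8d A, 1 without shG8d B, 5 without shNC A, 3 without shNC B, 2 with equal library totals and 0 without the variance trend.

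**Figure D4:**
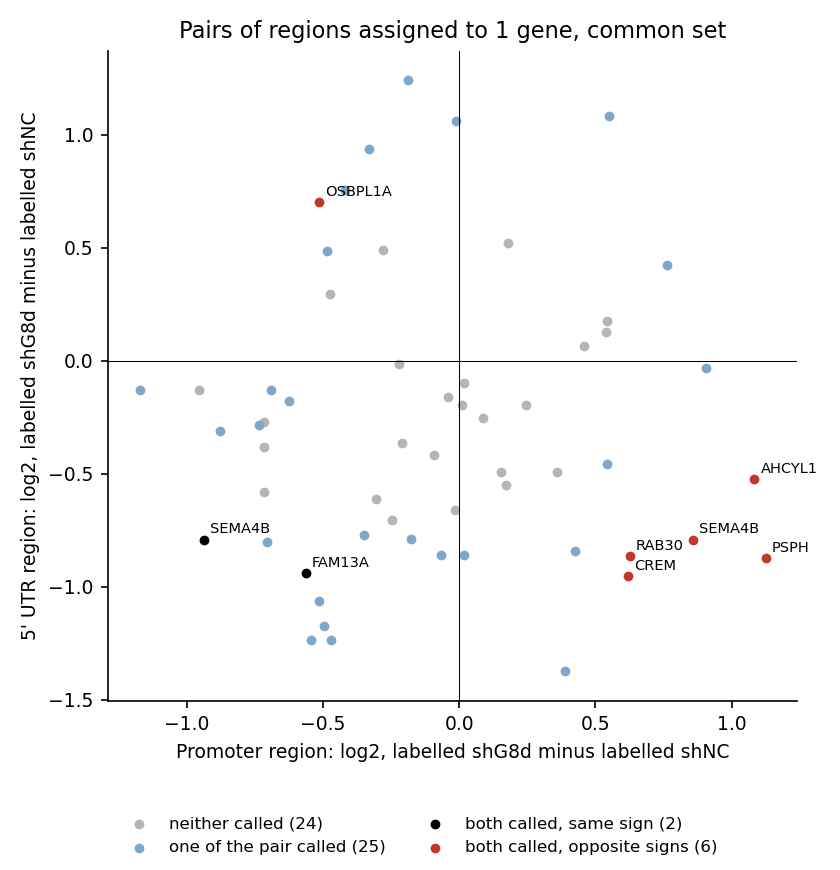
log2 difference (labelled shG8d minus labelled shNC) of the 5′ UTR region (y axis) and of a promoter region of the same gene (x axis), for 57 pairs of the common set. The 6 red pairs were called in opposite directions and the 2 black pairs in the same direction.

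In 8 genes 2 regions carried the 5′ UTR annotation. Both regions of MAST4, a serine/threonine kinase gene, were lower in the shG8d-labelled libraries, by -1.07 and -0.69 on the log2 scale (limma adjusted p = 0.00912 and 0.0221). Without shG8d B the first had a limma adjusted p of 0.0576, and without shG8d A the second had 0.294. STC2, a secreted glycoprotein of calcium and stress responses, had a common region at 1007 bp with a difference of -0.45 (limma adjusted p = 0.109) and an shG8d-specific region at 304 bp with 1.28. As the labels are exchanged between these sets, both STC2 regions had the higher values in the shallower pair. No region of the other 6 genes (ARHGAP29, DCLK1, SP3, ZSCAN31, VGLL4 and EIF3CL) passed the test.

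In the shG8d-specific set 20 of 27 5′ UTR regions (74.1%) were higher and none was lower in the shG8d-labelled libraries (limma), where over all regions of that set the percent called was 70.0% higher and 0.0363% lower. At an unadjusted p under 0.05 the authors' deposited table also had 20 higher and 0 lower. The set is named for one group, so its direction may follow from how regions entered it, and it is given as a description. The median log2 difference was 1.11, 17 of the 20 were at least 2-fold, and in all 27 both shG8d-labelled values were above both shNC-labelled ones, as they were in 94.7% of all 2755 regions of that set. Without shNC A 5 regions were called and without shNC B 11.

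ADAM12, a membrane metalloprotease, had 47.1 and 86.7 normalized counts in the shG8d-labelled libraries and 21.9 and 14.5 in the shNC-labelled ones, a log2 difference of 1.79 ± 0.36 (limma adjusted p = 0.00226). PDGFRA, a platelet-derived growth factor receptor also known as a fibroblast marker, had 60.4 and 50.4 in the shG8d-labelled libraries and 15.1 and 23.4 in the shNC-labelled ones, a difference of 1.50 (limma adjusted p = 0.00506). LAMB2, a laminin chain of basement membranes, had 84.6 and 83.2 against 30.3 and 36.3 (shG8d-labelled against shNC-labelled), a difference of 1.31 (limma adjusted p = 0.0025). LAMB2 had the tightest shG8d-labelled pair of the 3. BMP2, a bone morphogenetic protein, had 37.5 and 29.3 in the shG8d-labelled libraries and 17.7 and 6.46 in the shNC-labelled ones, with a difference of 1.53 (limma adjusted p = 0.0222) that fell to 0.87 without shNC B (limma adjusted p = 0.321). PDGFRA had a limma adjusted p of 0.0644 without shNC A.

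STC2 had 137 and 99.6 normalized counts in the shG8d-labelled libraries and 37.9 and 59.7 in the shNC-labelled ones (limma adjusted p = 0.0025, and 0.0529 without shNC A). RNF10, a RING finger protein, differed by 1.48 (limma adjusted p = 0.00908, with 0.0704 without shNC A and 0.058 without shNC B). The keratin gene KRT23 differed by 1.13 (limma adjusted p = 0.0476), with 0.146 without shNC A, 0.342 without shNC B and 0.073 without shG8d B. FAM72D had 180.0 and 224 against 48.0 and 91.2 (shG8d-labelled against shNC-labelled), a difference of 1.59, but its reads may belong to a near-identical copy. Further called regions included SLIT2, an axon guidance ligand (0.90), MR1, which presents vitamin B metabolites to T cells (1.10), NMI, an interferon-induced protein (1.11), and ELOVL6, a fatty acid elongase (0.97). Without shNC A the limma adjusted p was 0.191 for SLIT2, 0.0767 for MR1, 0.388 for NMI and 0.0964 for ELOVL6. Without shNC B it was 0.18 for SLIT2, 0.191 for MR1 and 0.0731 for ELOVL6. Leaving out shG8d A gave 0.106 for SLIT2 and 0.0575 for ELOVL6, and leaving out shG8d B gave 0.135 for MR1 and 0.0932 for NMI.

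In the shNC-specific set 50 of 216 5′ UTR regions (23.1%) were lower and 3 (1.39%) were higher in the shG8d-labelled libraries (limma), where over all regions of that set the percent called was 13.2% lower and 0.979% higher. The share lower was 29.7% among promoter regions of that set and 21.0% among other exon regions, with 5′ UTR regions between them. The median log2 difference was -0.45, beside -0.49 in promoter regions and -0.24 over the set. Of the 50, 35 were at least 2-fold lower. The authors' deposited table had 50 lower and 4 higher at an unadjusted p under 0.05. Without shNC A 15 were lower, without shNC B 17, without shG8d A 86 and without shG8d B 35. The same fits had 0 to 6 regions higher, with 0 without shNC A. With equal library totals 23 were lower and 10 higher. Here too the set is named for one group.

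ITGB5, an integrin subunit that binds vitronectin, had 35.0 and 16.4 normalized counts in the shG8d-labelled libraries and 102 and 88.8 in the shNC-labelled ones, a log2 difference of -1.94 ± 0.33 (limma adjusted p = 0.000569). CLSTN1, a calsyntenin of vesicle transport, had 31.4 and 18.7 in the shG8d-labelled libraries and 74.9 and 102 in the shNC-labelled ones, a difference of -1.81 (limma adjusted p = 0.000722). Both groups stood well apart in these 2 genes. ATP2A2, the calcium pump SERCA2, had 47.1 and 7.03 in the shG8d-labelled libraries and 76.6 and 62.1 in the shNC-labelled ones. Its shG8d-labelled values were far from each other, and the difference of -1.83 (limma adjusted p = 0.0168) became -0.54 without shG8d B (limma adjusted p = 0.167) and -1.68 without shNC A (limma adjusted p = 0.0705).

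LATS2, a kinase of the Hippo pathway that restrains YAP, had 32.6 and 25.8 normalized counts in the shG8d-labelled libraries and 83.3 and 83.1 in the shNC-labelled ones, a log2 difference of -1.49 ± 0.28 (limma adjusted p = 0.00136). It and TCF7L2, a Wnt transcription factor (-1.43, limma adjusted p = 0.0444), were the 2 lower of 5 Wnt, Notch and Hippo regions in that set. TCF7L2 itself varied between the shG8d-labelled libraries, with 43.5 and 8.2 normalized counts, and its difference was -0.29 without shG8d B (limma adjusted p = 0.555). Its limma adjusted p was 0.0589 without shNC A and 0.227 without shNC B. MINK1, a kinase of the Ste20 family, had 22.95 and 11.7 in the shG8d-labelled libraries and 50.5 and 52.5 in the shNC-labelled ones, a difference of -1.59 (limma adjusted p = 0.00576). NSD2, a histone H3 lysine methyltransferase, differed by -1.62 (limma adjusted p = 0.00787) in a region of exon 2 that lies 1235 bp upstream of its nearest TSS. LYPD6B differed by -1.63 (limma adjusted p = 0.00473). Without shNC A the limma adjusted p was 0.0742 for MINK1, 0.0952 for NSD2 and 0.116 for LYPD6B, and without shNC B it was 0.079, 0.182 and 0.0809 in that order.

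EPCAM, the epithelial adhesion molecule, had 37.5 and 22.3 normalized counts in the shG8d-labelled libraries and 74.9 and 72.6 in the shNC-labelled ones. Its log2 difference was -1.32 (limma adjusted p = 0.00526, and 0.0547 without shNC A), while CLDN4, a tight junction claudin of the same list and set, differed by -0.01. MFSD14C, a member of the major facilitator superfamily, had 38.7 and 39.8 in the shG8d-labelled libraries and 109 and 108 in the shNC-labelled ones, a difference of -1.44 (limma adjusted p = 0.000601). Both pairs of MFSD14C agreed closely. ID3, an inhibitor of basic helix-loop-helix factors, differed by -0.71 (limma adjusted p = 0.0471), with a limma adjusted p of 0.0993 without shNC A, 0.312 without shNC B, 0.268 without shG8d B and 0.287 with equal library totals. Of the 17 far regions of this set 4 were lower (23.5%, beside 23.1% of all its 5′ UTR regions). Among them FLNA, the actin crosslinker filamin A, differed by -1.03 and the sphingosine receptor S1PR1 by -1.18 (limma adjusted p = 0.0209 and 0.0125). Without shNC A these were 0.222 and 0.0958, without shNC B 0.0808 and 0.146, and with equal library totals 0.0994 and 0.0527.

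The 3 regions that were higher in the shG8d-labelled libraries of the shNC-specific set were ZNF821, MCF2 and C6orf132. MCF2, a guanine nucleotide exchange factor, had 56.8 and 37.5 normalized counts in the shG8d-labelled libraries and 22.7 and 22.6 in the shNC-labelled ones. ZNF821 had 55.6 and 57.4 in the shG8d-labelled libraries and 21.0 and 35.5 in the shNC-labelled ones. Their log2 differences were 0.995 and 1.02, and that of C6orf132 was 0.88 (limma adjusted p = 0.0422, 0.0301 and 0.0268). All 3 calls were lost without shNC A, with limma adjusted p of 0.171, 0.322 and 0.356 for MCF2, ZNF821 and C6orf132. MCF2 was also lost without shNC B (0.156) and without shG8d A (0.183).

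The 3 MTRNR2L regions gave the extreme values of the whole group. These genes are nuclear copies of the mitochondrial 16S ribosomal RNA gene, so reads of mitochondrial DNA may align to them and the counts are uncertain. MTRNR2L3 had 706 and 525 normalized counts in the shG8d-labelled libraries and 149.8 and 64.4 in the shNC-labelled ones, a log2 difference of 2.62 ± 0.26 (common set, limma adjusted p = 2.24e-06). MTRNR2L2 had 4052 and 2395 in the shG8d-labelled libraries and 19327 and 15531 in the shNC-labelled ones, a difference of -2.48 ± 0.25 (shNC-specific set, limma adjusted p = 2.54e-06). MTRNR2L4 had 43.5 and 15.2 against 223 and 126 (shG8d-labelled against shNC-labelled), a difference of -2.65 ± 0.36 (shNC-specific set, limma adjusted p = 8.69e-05). The signs differ between sets only through the labels, since the deeper pair had the high values in all 3. Of 13 regions of any annotation within 2000 bp of 8 MTRNR2L genes, 11 were higher in the deeper pair and none was lower (limma). Deeper minus shallower log2 differences ran from 0.03 to 2.77. The 5′ UTR regions of MTRNR2L2 and MTRNR2L4 are from the shNC-specific set and the remaining ones from the common set. Over all common regions 10.7% had a call toward the deeper pair and 15.0% toward the shallower pair. Over all shNC-specific regions these shares were 13.2% and 0.979%.

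Regions at butyrophilin genes of chromosome 6 were set side by side by physical library, a grouping made after their values were seen. BTN3A1 (-1.44) and BTN2A1 (-0.99, limma adjusted p = 0.00337) were lower in the shG8d-labelled deeper pair of the common set. BTN3A3, with 39.9 and 49.2 normalized counts in the shG8d-labelled libraries and 17.7 and 12.9 in the shNC-labelled ones, was higher by 1.49 in the shG8d-specific set (limma adjusted p = 0.0079, and 0.0756 without shNC B), where shG8d labels the shallower pair. A promoter region of BTN3A2 in the common set differed by -1.39 (limma adjusted p = 0.0012). These 4 regions were lower in the deeper pair. The other 5 regions nearest a butyrophilin gene were not called: a promoter region of BTN2A2 at 0.30 (limma adjusted p = 0.322), a noncoding region of BTN2A3P at -0.18 (0.624), and intergenic regions of BTN3A2 at 0.70 (0.119) and 0.39 (0.313) in the common set and -0.04 (0.955) in the shNC-specific set. BTN3A1 and BTN2A1 have different roles, as BTN3A1 binds phosphoantigens inside the cell and BTN2A1 is a ligand of the γδ T cell receptor.

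The differences of the 5′ UTR regions moved with the base composition of the gene's start. A RefSeq window of 250 bases before to 50 after the start was matched by symbol for 729 of 892 regions within 1000 bp (81.7%). Where a gene had several windows, their G and C content was averaged. In the common set the median log2 difference was -0.30 where G and C made up at most 55% of the window, -0.05 at 55 to 60%, 0.07 at 60 to 65%, 0.04 at 65 to 70% and 0.10 over 70%. The share called higher was 6.31% of 111 regions in the lowest class and 25.3% of 91 in the highest, and the share called lower 24.3% and 7.69%. Median G and C content was 65.3% in the 84 higher regions, 58.0% in the 77 lower regions and 62.7% in the 384 regions not called. In the shNC-specific set, where the labels are the other way round, the medians of the same 5 classes were -0.29, -0.12, -0.51, -0.42 and -0.58. The shG8d-specific set had 22 matched regions, too few to divide. In both larger sets the GC-richest starts thus had the values most in favour of the deeper pair, and the part of base composition in the calls was not tested. Promoter regions of the common set showed the same trend, from -0.24 in the lowest class to 0.24 in the highest.

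**Figure D5:**
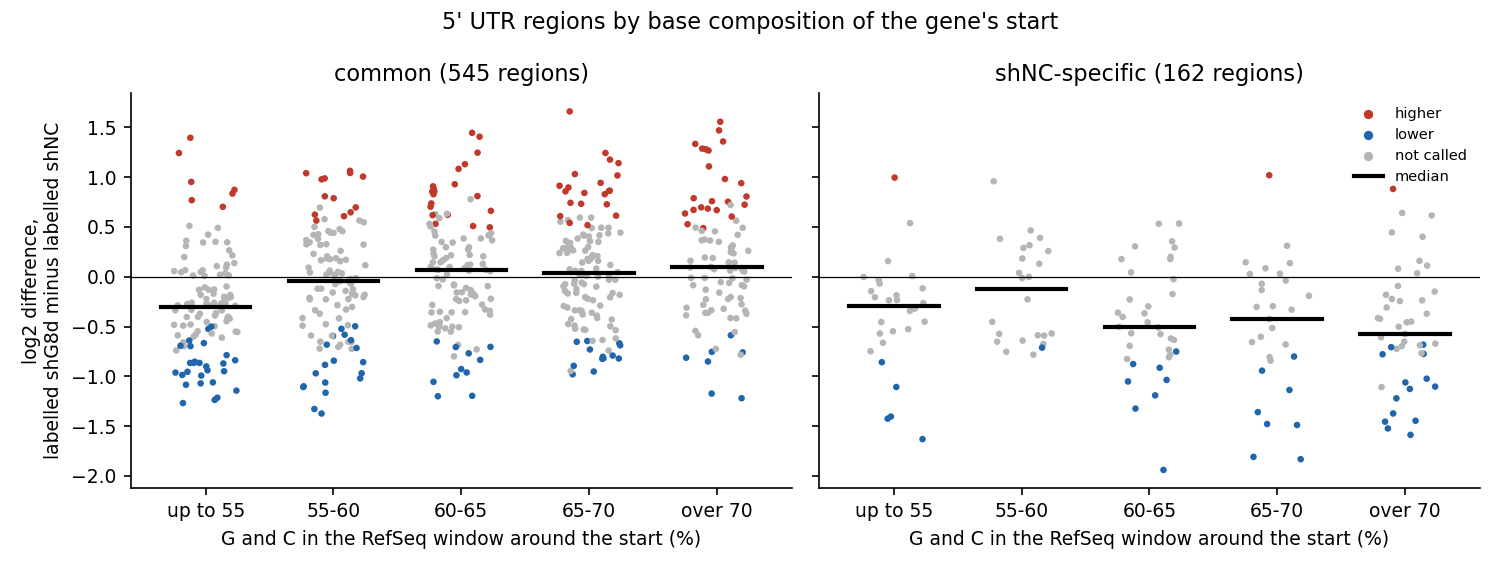
log2 difference (labelled shG8d minus labelled shNC) of 5′ UTR regions by the percentage of G and C in the RefSeq start window, in the common set and the shNC-specific set. Black bars are medians, which in the common set run from -0.30 in the lowest class to 0.10 in the highest.

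Short motifs in the start windows were compared between called and uncalled regions of the common set. Letters were searched on both strands of the windows of matched genes. GGGCGG was in 82.1% of the higher, 61.0% of the lower and 72.4% of the uncalled common regions, and in 48.3% of all 27305 RefSeq genes. TATAAA was in 5.95% of the higher, 19.5% of the lower and 9.64% of the uncalled regions, and in 14.0% of all genes. CCAAT was in 52.4%, 46.8% and 44.0% in that order, against 39.7% of all genes. CCGGAAG, the letters of an ETS site, was in 10.7% of the higher and 19.5% of the lower regions but in 27.6% of those not called, against 12.2% of all genes. TGANTCA, the AP-1 letters, was in 8.33%, 7.79% and 7.55%, against 9.37%. Of the 5 motifs, GGGCGG was thus most frequent in the higher and TATAAA in the lower regions, CCGGAAG was most frequent in those not called, and the shares of TGANTCA were close to each other. In the shNC-specific set CCAAT was in 27.8% of the lower regions and 38.2% of those not called. GGGCGG contains only G and C, so its share moves with base composition, and a match is a run of letters and not evidence of a bound factor.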

How the data were processed

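ATAC-seq of 4 MCF10A libraries was analysed. Per the submitters' processing notes, CASAVA 1.4 and build hg19 were used. Which aligner, peak caller and test were used is not given in the sources used here. Per the file headers, the authors deposited for each region a log10 normalized value per sample, a log2 fold change and a p-value. Raising 10 to the log10 values gave whole multiples of 1 step per column for 100% of values (tolerance 0.05 reads), so reads and libraries were recovered. A read was worth 0.842 and 0.807 normalized counts in the deeper libraries and 1.21 and 1.17 in the shallower, where medians were 65, 68, 48 and 49 reads per region. A count of 3 reads corresponded to 2.42 to 3.62 normalized counts. Such limits cover counting error only.

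For the 5′ UTR regions the fold change the authors deposited differed by at most 0.0052 from log2 of the ratio of the group means. limma 3.58.1 (R 4.3.3) with a variance trend was fitted to log2(normalized count + 1) of all 58127 regions, with a minimum of 10 normalized counts in 2 libraries, which removed none. Fold changes on this scale understate low regions. On simulated data for the deeper against the shallower pair (58127 regions), 37% of 100 regions changed 2-fold and 98% of 100 changed 4-fold were recovered, with 1.46% of 137 calls false. That simulation used 1 fixed dispersion and left all other regions unchanged. In the data 3634 common regions were called higher and 5082 lower. With fewer changed regions the adjusted threshold falls at a smaller p-value, so the 37% is not the share recovered in the data. No count model was used, because the deposited values are normalized.

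Regions named are the 8 largest called differences without overlap per set and direction, the 5 of highest level and, per gene list, the largest called member in each direction, besides those said to be named after their values were seen and members given as examples of a list, position or pair. Members and gene lists were chosen with earlier results of these data known. Symbols matched RefSeq (GRCh38.p14) by accession for 915 regions, and 2 symbols stand as dates. Alternatives were another scaling, pseudocounts, filters, no variance trend, leaving out each library and a replicate block. Region coordinates were not used here.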

Additional observations from a re-analysis of the deposited data

How the results depend on the processing

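Of 48 named regions with a call, 25 kept it in every alternative and none changed direction. Calls were lost for 8 named regions without shG8d A, 8 without shG8d B, 14 without shNC A, 13 without shNC B, 10 without the variance trend, 4 with equal library totals and 1 with a filter of 30 normalized counts. BMP2 reached 30 normalized counts in only 1 library, so that filter left it out and its call was not tried there. Pseudocounts of 0.5 and 5 and the replicate block lost none. The fit with no filter could lose none, because the main filter removed no region and the 2 fits are the same. Leaving out 1 library gave 37 to 142 higher and 22 to 106 lower common 5′ UTR regions, 5 to 18 higher shG8d-specific regions, and 0 to 6 higher and 15 to 86 lower shNC-specific regions, with the lone library of a group assumed to vary like the other group. Equal library totals gave 38 higher and 227 lower common regions, and 10 higher and 23 lower shNC-specific regions, and moved the medians to -0.39 (common), 1.45 (shG8d-specific) and -0.11 (shNC-specific), which follows from the shift of all regions by that scaling. It also turned the uncalled differences of MYC to -0.23 and KIF21A to -0.19. Without the variance trend there were 39 higher and 43 lower common regions and 29 lower shNC-specific regions, and the cause was not tested. The 10 calls lost there were those of NR1H2, ZFP36L1, BIRC3, DSG2, RXRA, SLC25A15, ATG10, ATP2A2, ID3 and C6orf132.

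The letters A and B were not shown to pair the libraries, as deviations of same-lettered libraries correlated at -0.0039 over regions. With the letter as a replicate block there were 101 higher and 99 lower common regions, 21 higher shG8d-specific regions, and 4 higher and 56 lower shNC-specific regions.

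With 2 libraries a group, true changes can be missed, so a region that was not called cannot be taken as equal between groups.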
